A study of Mus musculus with 29 samples.

Results

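DUXBL is a mouse transcription factor (TF) with a pair of homeodomains, and its genomic sites were mapped in NIH-3T3, a mouse fibroblast line, as a fusion with an HA tag. All 24318 peaks of the single DUXBL-HA list are described here, out of 304922 peaks in 28 lists from 24 constructs. The TF was produced from an integrated lentiviral transgene, switched on overnight by 500 ng/ml doxycycline, and carried 3 copies of HA at its C terminus. Cells were fixed in 1% formaldehyde and chromatin was precipitated with anti-HA. Every construct used for comparison was induced, fixed and precipitated in the same way: BHLHB8-HA, BRACHYURY-HA, CDX2-HA, DLX1-HA, DLX6-HA, EBF1-HA, FOXA1-HA, FOXA1_RR-HA, FOXA1_SW-HA, HLF-HA, MAX-HA, NANOG-HA, OCT4-HA, PRR3-HA, RHOX11-HA, SIX6-HA, SOX15-HA, SOX2-HA, TEAD1-HA, THAP4-HA, TOX3-HA, ZFP319-HA and SOX2-YPET OCT4-HA. FOXA1_RR-HA and FOXA1_SW-HA are FOXA1 mutants, which the paper describes as having less non-specific DNA binding. In SOX2-YPET OCT4-HA, a fusion of SOX2 with YPet was co-expressed, and OCT4 carried the HA tag. The DUXBL-HA list says where the induced fusion protein was recovered. DUXBL-HA has 1 list, so it has no replicate error, and all intervals are 95% exact (Clopper-Pearson) intervals that cover counting error over peaks only. The lists give positions without read numbers, so the depth behind them is unknown. No expression file was used here, so the fibroblast identity of the cells was not checked.

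Homeodomains are small DNA-binding folds that read short AT-rich sequences. Double homeobox proteins carry 2 of them in tandem and read 2 such half-sites in a head-to-head arrangement. The family is known from early development: the related mouse protein DUX switches on genes of the 2-cell embryo, and Duxbl has been described in germ cells, muscle progenitors and immature T cells, all of them cell types other than the fibroblasts used here.

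Peaks were 220 to 1575 bp wide with a median of 275 bp. To find the sequence that set them apart, all words of 11 letters were counted in the central 200 bp of each peak and in control windows of equal width, placed 5 kb downstream and clear of peaks in all 28 lists. The word with the largest excess, called the leading word, was TAACCCAATCA. It was present in 2893 of 24318 peaks (11.9%, interval 11.5 to 12.3) and in 37 of 22885 control windows (0.162%, interval 0.114 to 0.223). Because the word was chosen on these peaks, this difference is given as a description. Its p, like those of the other comparisons of the word's share within the list, was computed among the 12 tests adjusted together and is not read as support. Widening the word by the changes that kept most of its share at a peak, described with the values by position, gave a set of 4 words, which was found in 5390 peaks (22.2%) and in 43 control windows (0.188%). The following stretches of GRCm38 show each word of the set, and 2 further words that begin with TGAT, in the widest peak found with an unmasked centre, the word within 10 bp of the midpoint and outside exons, and no overlap with another construct. Capitals mark the word, which is read 5′ to 3′. Intergenic here means outside exons and protein-coding genes, and introns of other genes were not checked.
Ak5 intron, chr3:152494706-152494766, plus strand: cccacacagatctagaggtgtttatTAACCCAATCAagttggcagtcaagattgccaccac
Intergenic, 25.8 kb from Gm8890, chr5:11230250-11230310, plus strand: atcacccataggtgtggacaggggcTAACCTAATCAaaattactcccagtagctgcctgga
Inpp5b intron, chr4:124791328-124791388, minus strand: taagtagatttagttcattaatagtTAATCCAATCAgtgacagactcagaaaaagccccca
Intergenic, 176.2 kb from Nova1, chr12:46518334-46518394, minus strand: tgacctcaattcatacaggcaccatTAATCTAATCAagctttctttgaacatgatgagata
Nell1 intron, chr7:50335371-50335431, plus strand: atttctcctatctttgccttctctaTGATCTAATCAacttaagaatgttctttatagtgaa
Intergenic, 109.1 kb from Hlx, chr1:184617984-184618044, plus strand: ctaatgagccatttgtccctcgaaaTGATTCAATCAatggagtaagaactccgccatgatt

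Read as half-sites, these words pair TAAC, TAAT or TGAT with AATCA across 2 letters, and TGAT is the reverse complement of ATCA. In unmasked DNA, meaning sequence that the genome's soft-masking does not mark as repeat, TAAC and AATCA separated by 2 letters lay within 100 bp of a DUXBL-HA midpoint in 1775 of 17366 occurrences (10.2%, interval 9.77 to 10.7). For TAAT the share was 5.99% (1867 of 31167) and for TGAT it was 13.4% (3446 of 25661). Sites that read as the TGAT pair on both strands were counted 2 times, at other gaps as well. The TGAT shares are therefore not compared with those of TAAC and TAAT. With 0, 1 or 3 to 8 letters between the pair, the 24 shares ran from 0.164% to 0.873%. The gap of 2 letters had the highest share for each of the 3 left half-sites. The half-sites and the gap were read off words chosen at these peaks, so this is a description. Without the 4 words of the set, the share at a gap of 2 was 4.62% for TAAC (721 of 15617) and 1.61% for TAAT (457 of 28395), and the set holds no word with TGAT. In the peaks themselves, TAACNNAATCA was found in 19.1% (4650), TAATNNAATCA in 8.78% (2136) and TGATNNAATCA in 9.99% (2429). At least 1 of the 3 was in 9127 peaks (37.5%), against 246 control windows (1.07%).

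Not all letters counted alike. Positions are numbered from 1 at the 5′ end of the leading word, and each change gives the word's letter, the position and the new letter. The unchanged word was at a peak in 475 of 785 unmasked occurrences (60.5%, interval 57.0 to 63.9). Only C4T and C6T left the share above 50% (54.98%, 717 of 1304, and 60.1%, 579 of 964), and these made up the set of 4 words. At position 9 no change left more than 0.353%, and at position 10 none left more than 1.29%. At position 7 the highest share was 1.25%. In the right half-site A8C (9.16%) and A11T (7.88%) were the only changes that left more than 5%. In the left half-site no change at position 2 left more than 6.84% and none at position 3 more than 3.58%. Position 1 kept 16.95% to 25.1% under its 3 changes, and C5T kept 26.7% (287 of 1074). Letters also depended on each other: A2G alone left 6.84% (59 of 862). In contrast TGATCTAATCA, which carries G at the same place and T at positions 4 and 6, was at a peak in 647 of 1060 unmasked occurrences (61.0%, interval 58.03 to 63.99). Position 4 lies in the left half-site and position 6 in the gap. The intervals of that word and of the leading word overlap, so their shares in unmasked DNA are not ordered by these data.

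**Figure D1:**
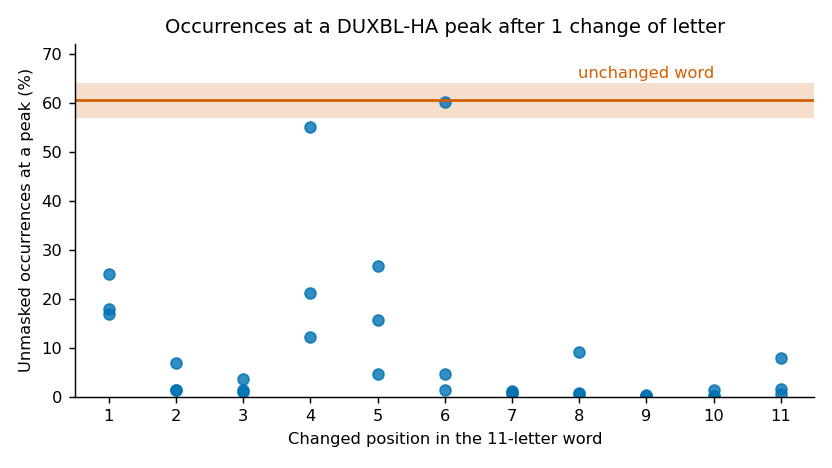
Share of unmasked genomic occurrences of the 11-letter word that lay within 100 bp of a DUXBL-HA midpoint (vertical axis, percent) after 1 letter was changed at the position on the horizontal axis. Each point is 1 of the 3 possible changes, and the line with its band is the unchanged word with its 95% exact interval, at 60.5%. Only 1 change at position 4 and 1 at position 6 stayed above 50%, and positions 7, 9 and 10 stayed at or below 1.29%.

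The words sat at the centres of the peaks. Of the 4521 unmasked occurrences of the 4 words, 2464 (54.5%, interval 53.04 to 55.96) lay within 100 bp of a midpoint. Within 20 bp there were 1603, between 20 and 40 bp 638, and between 80 and 100 bp 19. Between 300 and 400 bp there was 1. Peaks rarely held more than 1: 5376 peaks had 1 word of the set in the central 200 bp and 14 had 2.

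Most peaks held the word or something near it. The closest 11 letters in the central 200 bp differed from a word of the set by 1 letter in 7877 further peaks (32.4%), so that 54.6% of all peaks matched with at most 1 difference, against 1.29% of control windows. A further 6135 (25.2%) differed by 2 letters and 3941 (16.2%) by 3, against 16.5% and 58.2% of controls. In 971 peaks (3.99%) the closest letters differed at 4 positions, against 23.6% of controls. Which letter differed was not counted here, although the share at a peak depended on it, as described above.

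Whether a DUXBL-HA peak was shared with other constructs went together with which sequence it held. A peak was called solo if it shared no base with a peak of any other construct, and 18446 peaks (75.9%) were solo. The leading word was in 15.4% of solo peaks (2833, interval 14.8 to 15.9) and in 1.02% of the 5872 shared peaks (60, interval 0.781 to 1.31), and the log2 odds ratio was 4.12. The word was chosen on all of these peaks, most of them solo, so this too is a description. Restricted to unmasked centres the shares were 3.42% and 0.420%. With up to 1 letter different from the set, 67.8% of solo peaks matched, compared with 13.045% of shared peaks and 5.50% of the 3784 peaks shared with 3 or more constructs.

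The share fell step by step with the number of other constructs. A word of the set was in 28.4% of peaks with 0 other constructs, 8.22% with 1, 4.07% with 2, 0.962% with 3 or 4 and 0.1997% with 5 to 9. None of the 222 peaks shared with 10 or more held one, which allows a share of up to 1.65%. The AP-1 sequence, TGACTCA or its reverse complement TGAGTCA, which is read by FOS and JUN dimers and is common at fibroblast enhancers, went the other way. It was in 5.405% of solo peaks (997), 19.8% of those with 1 other construct, 34.6% with 2, 40.3% with 3 or 4 and 40.04% with 5 to 9, and in 3.20% of control windows. Shared peaks were also wider, with a median of 306 bp against 269 bp, richer in G and C (46.9% against 40.2%), and more often at promoters (9.23% against 1.79%). These features moved together along the same classes, and the part each plays was not tested.

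**Figure D2:**
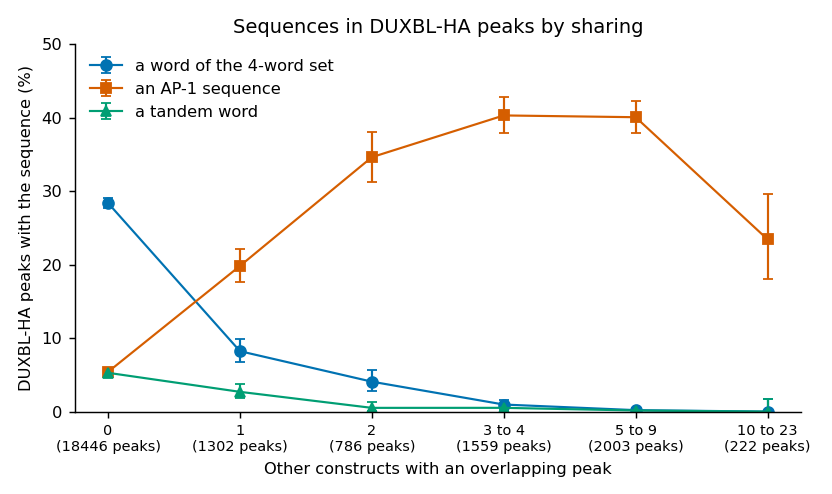
Share of DUXBL-HA peaks whose central 200 bp hold a word of the 4-word set, an AP-1 sequence or a tandem word (vertical axis, percent), by the number of other constructs with an overlapping peak (horizontal axis, with the number of peaks). Bars are 95% exact intervals. The set falls from 28.4% to 0% while AP-1 rises from 5.405% to about 40% and is 23.4% in the last class.

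The shared peaks were spread over many partners. BHLHB8-HA, the longest list, overlapped 4488 DUXBL-HA peaks (18.5%), DLX6-HA 3674 (15.1%), SOX2-HA 3440 (14.1%) and DLX1-HA 3148 (12.9%). TEAD1-HA, with 14959 peaks, overlapped only 136 (0.559%), and ZFP319-HA, with 14645, overlapped 427 (1.76%). CDX2-HA is a homeodomain list of like size to DUXBL-HA, and 1074 DUXBL-HA peaks (4.42%) and 1079 of its own 25278 (4.27%) overlapped. Seen from the other lists, DUXBL-HA was present at 56.5% of the 62 PRR3-HA peaks, 48.3% of the 58 THAP4-HA peaks and 47.1% of the 119 OCT4-HA peaks, so the shortest lists had the largest shares. The AP-1 sequence was in 33.3% to 42.7% of the peaks shared with BHLHB8-HA, DLX6-HA, SOX2-HA, DLX1-HA, SIX6-HA, EBF1-HA, SOX15-HA, CDX2-HA, FOXA1-HA and MAX-HA. A word of the set was in at most 2.79% of the same overlaps, the highest being that with CDX2-HA. Other overlaps were different: AP-1 was in 2.70% and the set in 6.08% of the 148 peaks shared with SOX2-YPET OCT4-HA, in 8.82% and 2.94% of the 136 shared with TEAD1-HA, and in 17.2% and 2.46% of the 406 shared with RHOX11-HA.

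**Figure D3:**
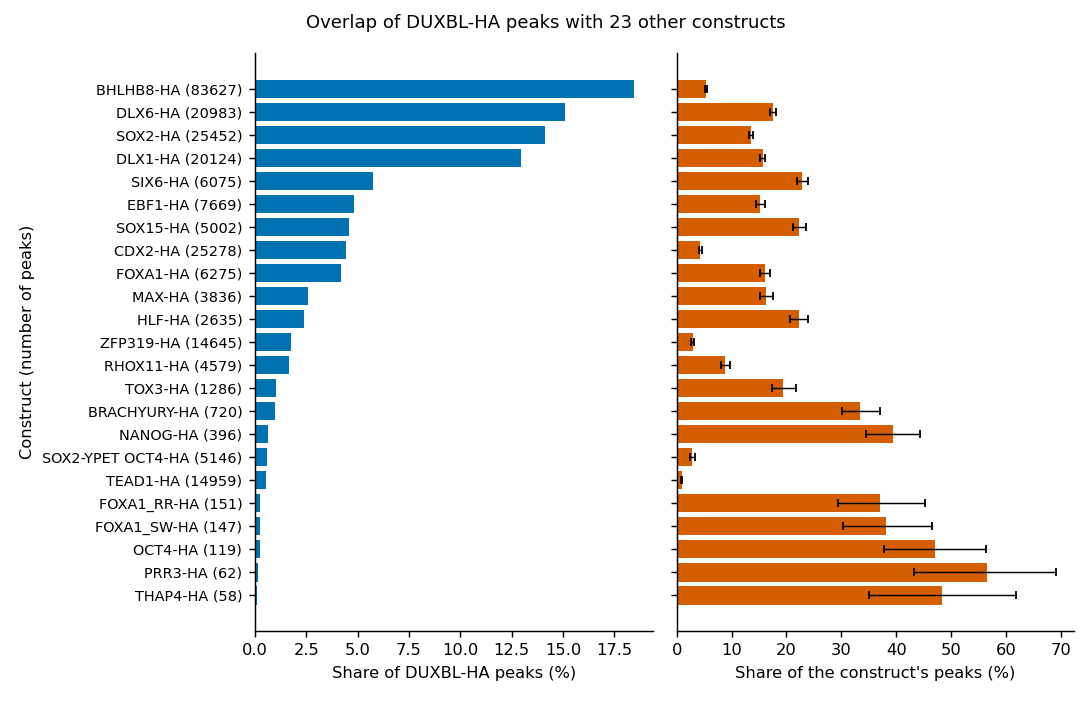
Left: share of the 24318 DUXBL-HA peaks that overlap a peak of each of 23 other constructs by at least 1 bp. Right: share of each construct's own peaks that overlap a DUXBL-HA peak, with 95% exact intervals. The number of peaks stands beside each name, and the long lists BHLHB8-HA, DLX6-HA, SOX2-HA and DLX1-HA lead on the left while the shortest lists lead on the right.

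The solo share depended on the comparison chosen. It was 75.9% for DUXBL-HA, 77.7% for CDX2-HA (19652 of 25278) and 11.7% for DLX6-HA (2446 of 20983). The difference from DLX6-HA was 64.2 percentage points (log2 odds ratio 4.57, adjusted p = 1.714e-300, two-sided Fisher's exact test with peaks as units, Benjamini-Hochberg over 12 tests). Leaving out DLX1-HA, a TF of the same family as DLX6, raised the DLX6-HA share to 13.4%. The difference from CDX2-HA was -1.89 points (log2 odds ratio -0.15, adjusted p = 6.322e-07, Fisher's exact test) and turned when a peak within 500 bp counted as shared (69.96% against 69.4%, adjusted p = 0.207). These p-values over peaks compare the lists at hand and not further libraries. Over the 18 constructs with at least 500 peaks DUXBL-HA ranked second in solo share, 46.7 points above the mean of the others (29.2%, SD 27.0), with an exact two-sided permutation p = 0.111. The smallest p that 18 constructs allow is 0.0556, so no rank can pass 0.05.

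Most occurrences of the leading word in the genome lie in repeats. Of 31639 occurrences, 30854 were soft-masked and 785 were not, and a peak lay at 7.88% and 60.5% of them (2431 and 475). Aligned on the word, 24557 occurrences had letters at least 80% identical to one another's majority over 50 bp on each side and are called copies of 1 repeat. No repeat library was used here, so the repeat is not named. Of these copies 1648 (6.71%, interval 6.401 to 7.03) were at a peak, and in those the agreement reached 132 bp to the left of the word and 74 bp to the right. An example, with the word in capitals, lies in an intron of Pla2g4a on the plus strand. Its flanks were 98% identical to the majority letters and 10 of its 12 flanking stretches occur once in the genome.
Repeat copy, chr1:149944909-149945039, plus strand: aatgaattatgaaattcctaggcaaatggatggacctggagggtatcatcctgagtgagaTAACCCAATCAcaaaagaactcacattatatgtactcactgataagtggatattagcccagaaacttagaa

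The reads behind the list were 37 nt long at each end and were kept only when they aligned to 1 place, and the share of occurrences at a peak was set beside how unique their surroundings are. For this, 12 stretches of 37 letters between 60 and 260 bp from each occurrence were looked up in the whole genome. Among repeat copies, the share at a peak was 0.427% (11 of 2579) where none of the 12 was unique, 2.95% with 1 to 3, 7.196% with 4 to 6, 13.5% with 7 to 9 and 18.4% (198 of 1078, interval 16.1 to 20.8) with 10 to 12. Occurrences outside these copies rose in the same way, from 0.193% to 38.1% (669 of 1755, interval 35.8 to 40.4). These other occurrences mix masked and unmasked DNA. With 10 to 12 unique stretches the masked ones were at a peak in 21.7% (226 of 1042, interval 19.2 to 24.3), an interval that overlaps that of the repeat copies, and the unmasked ones in 62.1% (443 of 713, interval 58.5 to 65.7). Copies that had drifted further from the majority letters were at a peak more often, 13.1% at 80 to 84% identity and 3.30% at 96 to 100%. Their median number of unique stretches was 7 and 3. Identity and uniqueness were not set against each other, so the part each plays was not tested.

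**Figure D4:**
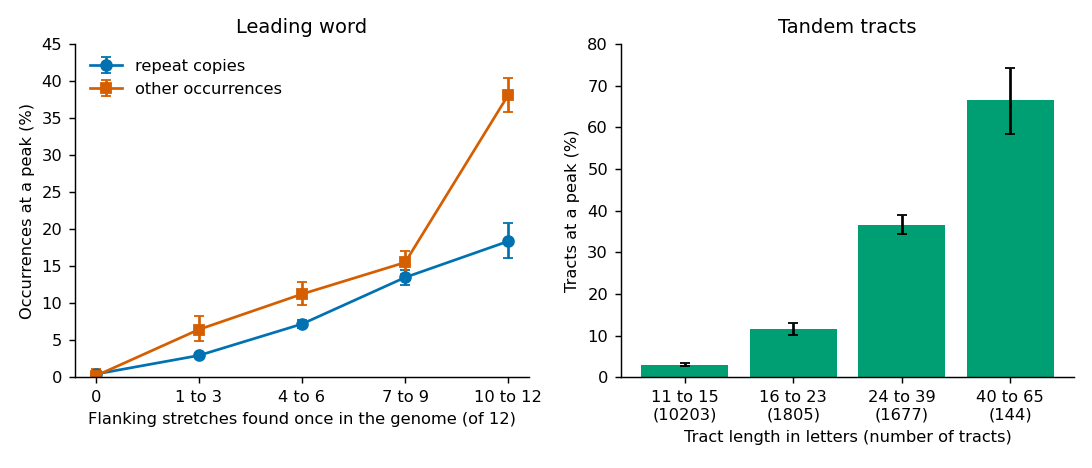
Left: share of genomic occurrences of the leading word within 100 bp of a DUXBL-HA midpoint (percent), for repeat copies and for all other occurrences, masked and unmasked together, by how many of 12 flanking stretches of 37 letters are found once in the genome. Right: share of tandem tracts of the unit AATC near a midpoint (percent), by tract length in letters. Bars are 95% exact intervals, and shares rise from 0.427% to 18.4% in repeat copies and from 3.03% to 66.7% over tract lengths.

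Although a masked occurrence was less often at a peak, masked peaks held the word more often. In 4938 peaks (20.3%) at least 50% of the central 200 bp was soft-masked, and the leading word was in 48.5% of these (interval 47.1 to 49.9) against 2.57% of the 19380 others (log2 odds ratio 5.15), a description of a word that was chosen on these peaks and is itself mostly in masked DNA. Counting any word of the set narrowed this to 56.3% against 13.5%. The soft-masked share exceeded that of CDX2-HA (8.66%, log2 odds ratio 1.43) and of DLX6-HA (4.06%, log2 odds ratio 2.59), both with adjusted p = 1.714e-300 by Fisher's exact test over peaks. Among the 18 constructs its rank was 4 (exact permutation p = 0.667), after ZFP319-HA with 61.04%, SOX2-YPET OCT4-HA with 34.8% and TEAD1-HA with 34.8%.

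Over their whole width, 26 peaks held 2 copies of the leading word, the most in any peak. The first 5 of them in genome order were solo and wholly soft-masked at the centre, and their words lay 28 to 397 bp apart, counted from the first base of one to the first base of the other. They are shown because they place 2 words in 1 peak. In the pair near Slc4a10 both words are on the minus strand 28 bp apart, so the plus strand reads their complement.
Near Slc4a10, 36.5 kb away, chr2:62009885-62009963, plus strand: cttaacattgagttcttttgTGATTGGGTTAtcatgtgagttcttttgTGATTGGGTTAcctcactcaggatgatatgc
Near Dsel, 611.9 kb away, chr1:112476805-112477001, plus strand: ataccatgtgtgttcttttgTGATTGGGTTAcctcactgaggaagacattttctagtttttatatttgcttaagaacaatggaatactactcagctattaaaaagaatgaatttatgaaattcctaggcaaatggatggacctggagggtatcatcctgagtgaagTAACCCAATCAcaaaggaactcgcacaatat
The other 3 lie in an intron of Cpa6 (words 347 bp apart), in an intron of Cubn (240 bp apart) and 50.2 kb from Etl4 (397 bp apart).

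A second kind of repeat was marked out as well. Tandem arrays of the 4-letter unit AATC, read in either strand and any phase, had 18290 of 71132 word positions (25.7%) within 100 bp of a midpoint. Over the other 32 units of 4 letters the median was 0.0854% and the highest 2.48%. Longer tracts were at a peak more often: 3.03% of those of 11 to 15 letters, 11.6% of 16 to 23, 36.6% of 24 to 39 and 66.7% (96 of 144, interval 58.3 to 74.3) of 40 to 65 letters. AATC was picked for its share near these midpoints, so its values are given as a description. A tandem word was in 1023 peaks (4.21%) against 0.114% of controls, and in 5.27% of solo and 0.851% of shared peaks. The array below, in an intron of Rbl2, is in the solo peak with the most such words, 55 in the central 200 bp, and capitals mark the whole tract of 65 letters.
Rbl2 intron, chr8:91082321-91082425, plus strand: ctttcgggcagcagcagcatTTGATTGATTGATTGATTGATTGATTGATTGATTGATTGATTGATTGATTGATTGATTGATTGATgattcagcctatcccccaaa

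Many peaks lay far from the starts of protein-coding transcripts, as did many positions of the genome. The median distance from a midpoint to the nearest start of a protein-coding transcript (GENCODE vM21) was 54.2 kb, and for 1 position per kb of the sequenced genome it was 60.3 kb. CDX2-HA had a median of 38.4 kb and DLX6-HA of 33.6 kb. Within 1 kb of a start, called a promoter here, lay 873 peaks (3.59%, interval 3.36 to 3.83), against 2.44% of genome positions. More than 100 kb away lay 37.2% of peaks and 39.8% of positions. Solo and shared peaks had different distances, with medians of 68.9 and 28.7 kb, and peaks with a word of the set lay farthest, at 98.7 kb. The promoter share was above that of CDX2-HA (2.19%, log2 odds ratio 0.73, adjusted p = 8.058e-21) and below that of DLX6-HA (8.08%, log2 odds ratio -1.24, adjusted p = 1.219e-94; Fisher's exact test over peaks). Among solo peaks the share was 1.79% for DUXBL-HA and 1.81% for CDX2-HA (adjusted p = 0.908, Fisher's exact test). For solo peaks of DLX6-HA it was 5.85% (log2 odds ratio -1.77, adjusted p = 9.559e-28, Fisher's exact test). Both solo comparisons are alternatives chosen after seeing the data.

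**Figure D5:**
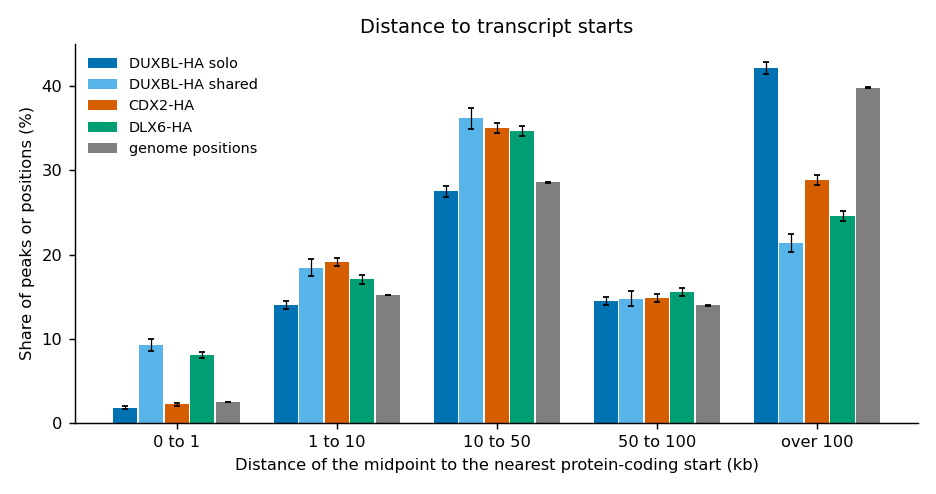
Share of peaks (percent) by distance of the midpoint to the nearest protein-coding transcript start in kb, for solo and shared DUXBL-HA peaks, CDX2-HA, DLX6-HA and 2647529 evenly spaced genome positions, with 95% exact intervals. Solo DUXBL-HA peaks have 42.2% beyond 100 kb against 39.8% of genome positions, and 1.79% against 2.44% within 1 kb, while shared peaks have 9.23% within 1 kb.

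By annotation, midpoints were in introns of protein-coding genes for 35.9% of peaks (genome positions 35.2%). They were in coding exons for 0.777% (1.38%) and in UTRs for 1.38% (1.53%). Outside all exons and protein-coding genes lay 59.9% (59.9%). CDX2-HA had 48.6% in introns. Over all protein-coding genes, 4849 of 21938 (22.1%) held a DUXBL-HA peak between start and end. The 8 genes with the most of them were long as annotated, with a median length of 1886 kb against 17.4 kb for all. Gm20388 held 29 peaks over 4435 kb, Cntnap2, a neuronal adhesion protein, 26 over 2245 kb, and Fgfr2, a fibroblast growth factor receptor, 24 over 2961 kb. Csmd3 and Rbfox1, an RNA splicing regulator, held 23 each, Cdk14 23 and Ptprd, a receptor phosphatase, 21. Against 0.911 peaks per 100 kb over all protein-coding genes, Zfp804b had the densest peaks of the 8 (25 over 576 kb, 4.34 per 100 kb), followed by Cdk14 (3.73), and the other 6 ran from 0.654 to 1.90.

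At promoters the leading word was scarce. It was in 17 of 873 promoter peaks (1.95%, interval 1.14 to 3.10) and in 12.3% of the others (log2 odds ratio -2.77), again as a description. In solo peaks with unmasked centres the shares were 0.997% and 3.48%. Only 17 of 32851 RefSeq promoters (GRCm38.p6, 250 bp before to 50 bp after a start; 0.0517%) held a word of the set on either strand, and 9 of these overlapped a DUXBL-HA peak (52.9%, interval 27.8 to 77.0), compared with 1.47% of promoters without one. The words of the set were chosen on the DUXBL-HA peaks, so this contrast is a description too. For 20 protein-coding genes a promoter peak held the leading word, with 1 copy in each of the 10 nearest. It was nearest to a start at Cryz, a quinone oxidoreductase, at 21 bp. The same peak serves Tyw3, a tRNA modification enzyme, at 405 bp, overlaps 1 other construct, and holds the word on the minus strand.
Cryz and Tyw3, chr3:154596676-154596704, minus strand: gagccgcgcTAACCCAATCActgtcgcta
The next were Tulp2 (40 bp) and Arhgap26 (139 bp), followed by Scyl2 (325 bp), Trappc11 (506 bp), Ugt2b38 (521 bp), Tmbim7 (666 bp), Tnip3 (694 bp) and Rwdd4a (703 bp), which shares its peak with Trappc11. All but the Cryz and Arhgap26 peaks were solo.

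Over all 21938 protein-coding genes, 4586 (20.9%) had a DUXBL-HA peak within 10 kb of a start, 938 (4.28%) had one within 1 kb, and 706 (3.22%) had one within 10 kb that held a word of the set. CDX2-HA (20.7%) and DLX6-HA (20.6%) reached nearly as many genes within 10 kb. Gene lists were read against these shares, as counts without a test. The share of all protein-coding genes with a solo peak was not computed, so counts of genes with a solo peak have no background.

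Of the double homeobox genes, Duxbl1, Duxbl2 and Duxbl3 had no DUXBL-HA peak within 10 kb, the nearest peak lying 116.7, 256.4 and 396.0 kb from their starts. The 3 genes are close copies of one another and only uniquely aligned reads were kept, so the absence of peaks there is uncertain. Duxf3, a gene of the Dux family, had a peak over a coding exon (chr10:58231905-58232179) whose midpoint lay 29 bp from a transcript start. That peak was shared with 11 other constructs and its closest letters differed from the set at 4 positions.

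Genes of the 2-cell stage had a peak within 10 kb for 6 of 31 (19.4%), near the background of 20.9%, and 5 of the 6 had a solo peak. Zscan4d, a zinc finger gene that marks the late 2-cell embryo, had a solo peak of 324 bp (chr7:11166320-11166643) with its midpoint 0.323 kb from the start. It held no word of the set but the pair TGATTGAATCA, which on the other strand is TGATTCAATCA, a word at a peak in 40.4% of its 1524 genomic occurrences.
Zscan4d, chr7:11166471-11166499, plus strand: ttttcctgcTGATTGAATCAcgtaaggaa
Tcstv3 had a solo peak at 1.03 kb with GAATCCAATCA, 1 letter from the set. Usp17la, a deubiquitinase gene, had one at 1.07 kb, Tdpoz3 one at 2.40 kb and Tdpoz4 a pair at 5.88 and 6.91 kb, of which the farther held TAACCAAATCA. That word is change C6A of the leading word. It was at a peak in only 19 of 1401 unmasked occurrences (1.36%), against 60.5% for the unchanged word. Usp17le had a peak at 3.52 kb that was shared with 1 construct. Several of these genes belong to families of close copies, where peaks from uniquely aligned reads are uncertain. None of the 31 genes had a peak with a word of the set, where 3.22% of all protein-coding genes did. CDX2-HA reached 3 of the 31 genes and DLX6-HA 2.

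Fibroblast genes had a peak more often, 12 of 32 (37.5%, interval 21.1 to 56.3), and 3 of these, S100a4, Col1a2 and Acta2, had a solo peak. Acta2, smooth muscle actin, was the 1 gene with a word of the set, in its peak at 4.19 kb, and it and Col1a2 are named here after their values were seen. DLX6-HA reached 24 of the same 32 genes and CDX2-HA 14. Around Col3a1, a fibrillar collagen, peaks at 2.097 and 6.88 kb were shared with 8 and 2 constructs, and around Col6a3, a microfibrillar collagen, peaks at 0.159 and 8.89 kb with 1 and 7. Vim, the intermediate filament vimentin, had a peak of 353 bp outside the gene at 0.259 kb with 4 other constructs, and Mmp2, a matrix protease, one at 0.977 kb with 4. Sparc, a matrix glycoprotein, had one at 1.04 kb with 7. Among the 6 genes named by the rule, S100a4, a calcium-binding protein, alone had a solo peak, at 0.169 kb, with closest letters 4 off. The Vim peak illustrates the shared kind. Its centre has the AP-1 sequence 2 times, in opposite orientations, shown in capitals. Its closest letters to the set differ at 3 positions.
Vim, chr2:13573598-13573638, plus strand: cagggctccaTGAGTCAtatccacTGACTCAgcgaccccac

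Skeletal muscle genes had a peak for 7 of 30 (23.3%, interval 9.93 to 42.3), near the background of 20.9%, and 6 had a solo peak. DLX6-HA reached 7 of the 30 genes and CDX2-HA 5. Mef2c and Mef2d, TFs of muscle differentiation, had 2 peaks each, of which the one 5.52 kb from Mef2d held CAATCCAATCA, 1 letter from the set. Mef2a had a solo peak at 3.38 kb with TAAACCAATCA. Mymx, which drives myoblast fusion, had a solo peak at 3.19 kb with 18 tandem words, and Des, the muscle intermediate filament desmin, one at 4.39 kb. Tnni1, a slow troponin, had a peak at 0.180 kb shared with 6 constructs. Myod1, Myog, Pax3 and Pax7 were not among the 7.

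Thymocyte genes had a peak for 3 of 28 (10.7%, interval 2.27 to 28.2) and germ line genes for 4 of 30 (13.3%, interval 3.76 to 30.7), both below the background, with intervals that include it. The 3 thymocyte genes were Oaz1, an inhibitor of ornithine decarboxylase, with a peak at 0.138 kb shared with 2 constructs and a solo peak at 2.15 kb, Cd3d with a solo peak at 6.96 kb and the co-receptor gene Cd4 with one at 8.76 kb. The germ line genes were Tex101 (4.79 kb), Piwil4 (5.07 kb), Sohlh2 (6.50 kb) and the meiotic recombinase gene Dmc1 (9.63 kb), each with a solo peak, and 3 of them, without Sohlh2, held letters 1 off the set.

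Gene families in clusters gave a different order between lists. Olfactory receptor genes had a DUXBL-HA peak within 10 kb for 174 of 1134 (15.3%, interval 13.3 to 17.6), under the background of 20.9%, and 64 (5.64%) had one with a word of the set, above its background of 3.22%. CDX2-HA reached 91 and DLX6-HA 32. Vomeronasal receptor genes had 33 of 328 (10.1%), of which 15 had a peak with a word of the set. Hox cluster genes had 8 of 39 (20.5%), near the background, while CDX2-HA reached 25. Keratin-associated protein genes had 18 of 57 (31.6%), with none holding a word of the set. Zfp zinc finger genes had 83 of 394 (21.1%), collagen genes 13 of 44 (29.5%), cadherin genes 5 of 23 (21.7%) and clustered protocadherin genes 5 of 56 (8.93%). Genes of a cluster can share a peak, so these counts are not of independent genes.

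DUXBL-HA peaks had fewer near neighbours than those of CDX2-HA and DLX6-HA, 2 homeodomain lists of like size. Another peak lay within 10 kb of 5084 of them (20.9%), against 37.4% for CDX2-HA (log2 odds ratio -1.18) and 44.02% for DLX6-HA (log2 odds ratio -1.57), both with adjusted p = 1.714e-300 (Fisher's exact test over peaks). Peaks within 10 kb count as neighbours of each other, so the peaks are not independent units in this comparison. Its p-values therefore do not measure counting error and are not read as support. DLX1-HA, also a homeodomain list (20124 peaks), had 41.4% and was not tested against DUXBL-HA. Among the 18 constructs with at least 500 peaks the DUXBL-HA share had rank 13 from the highest (median of the others 22.7%, exact permutation p = 0.611). When neighbours within 10 kb were joined, 19234 peaks stood alone, 2051 clusters had 2 peaks, 293 had 3 or 4 and 9 had 5 or more. The 49 peaks of those 9 clusters were solo in 32.7% and held a word of the set in 6.12% and AP-1 in 38.8%, compared with 78.5%, 23.02% and 11.6% of the peaks that stood alone. The largest cluster had 7 peaks (chr12:16144810-16170489) and touched no protein-coding gene, and 2 of its peaks were solo. Fmnl2, which encodes an actin regulator, lay at a cluster of 6 (chr2:52943682-52976260), of which 4 held AP-1. In the other cluster of 6 (chr5:15673104-15699373) no peak was solo and a peak was shared with up to 20 constructs. Clusters of 5 at chr1:54949259-54974280 and chr1:135668322-135690829 touched no protein-coding gene.

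On a larger scale, windows of 1 Mb held a median of 8 peaks, and 262 of 2737 held none. Of the 5 windows with the most peaks, 4 were on chromosome 5 between 5 and 11 Mb, with 40 to 43 peaks each. The window from 6 to 7 Mb, over Zfp804b, had 43 peaks, of which 30 were solo and 17 held a word of the set, and it held 27 peaks of CDX2-HA and 17 of DLX6-HA. The next, from 5 to 6 Mb over Cdk14 and Steap1, had 42 in DUXBL-HA and 63 in CDX2-HA, the most of any window there. The only one elsewhere, on chromosome 15 from 59 to 60 Mb over Trib1 and Sqle, had 41 peaks with 1 word of the set and 49 peaks in DLX6-HA, rank 3 there. Density by chromosome ran from 4.51 peaks per Mb on chromosome 14 to 17.4 on chromosome 15 among the autosomes. Chromosomes 14 and 15 were also the lowest and highest autosomes in CDX2-HA (5.25 and 17.4 per Mb) and DLX6-HA (4.55 and 13.4 per Mb).

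Chromosome X stood apart, with 231 peaks, or 1.41 per Mb against 10.1 over the autosomes. A word of the set in unmasked DNA was at a peak in 59 of 326 occurrences on X (18.1%, interval 14.1 to 22.7) and in 2405 of 4185 on the autosomes (57.5%, interval 55.95 to 58.97), where single chromosomes ran from 40.2% to 72.1%. The peaks on X were solo in 86.6% and held a word of the set in 40.7%, against 22.2% of all peaks. A low share on X was also seen in other lists: its 231 peaks were 0.9499% of the list, and X held 0.311% to 1.46% of the peaks of the 18 constructs with at least 500, while it makes up 6.18% of the sequence. Copy number and depth per chromosome are unknown here and their part was not tested. Chromosome Y had 3 peaks.

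The 5 widest solo peaks, 1072 to 1575 bp, held no word of the set, tandem word or AP-1 in the central 200 bp, and 4 of them were at least 61% soft-masked there, the widest lying 392 kb from Map3k7 (chr4:31571227-31572801). The remaining one, without masking, is in an intron of Chchd2, a mitochondrial protein gene (chr5:129881201-129882471), and its closest letters were 1 off the set. The 5 peaks with the most other constructs had 22 or 23 of 23. They lay 0.17 kb from 4931408C20Rik (chr1:26686970-26688290), in an intron of Zfp600 (chr4:146173637-146174072), over a coding exon of Rps2, a ribosomal protein gene (chr17:24720504-24721810), 379 kb from Khdrbs2 and 24.3 kb from Gm17019. None of these 5 held any of the sequences counted here either, and their closest letters differed from the set at 3 or 4 positions.

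Width ran against the leading word. It was in 17.2% of the 6056 narrowest peaks (220 to 243 bp) and in 5.98% of the 6087 widest (321 bp and more), whereas the set as a whole moved only from 23.5% to 20.7%. The solo share fell from 84.8% to 58.2% and the AP-1 share rose from 10.1% to 16.9% over the same range. The soft-masked share fell from 27.4% to 13.1%, and its part in the fall of the leading word was not tested. Among the 18 constructs, DUXBL-HA was the only list with the leading word in more than 0.0437% of its peaks, a description since the word was chosen on it.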

How the data were processed

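The authors aligned paired-end reads of 37 nt to mm10 with STAR (2.5.3a), kept reads with 1 alignment, removed duplicates with Picard and called peaks for each sample with MACS2 (2.1.1.20160309). Peaks that lay over input peaks or blacklisted regions were dropped. Each deposited file holds chromosome, start and end of each peak, with no score or read number. Per the file headers no other unit is given. The members and gene lists were chosen with earlier results of these data known.

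Python 3.11.15, NumPy 2.4.6 and SciPy 1.17.1 were used with GRCm38 and GENCODE vM21, and Matplotlib 3.10.9 for plots. Printed coordinates count from 1. The 2 lists each of SOX2-HA, OCT4-HA, FOXA1-HA and BHLHB8-HA were merged. Peaks overlapped from 1 bp. Two-sided Fisher's exact tests compared shares, with p-values adjusted together by Benjamini-Hochberg over 12 tests. Peaks, not libraries, are the units. p-values under 1e-300 were set to 1e-300 before adjustment. Odds ratios had 0.5 added to each cell. Overlap and word counts were checked on simulated data. Letters were kept in the set where the share at a peak was at least 50% of that of the unchanged word. Items named followed these rules: members of each gene list with the most peaks within 10 kb (up to 6), the 8 genes with the most peaks, the 10 promoters with the leading word nearest a start, and 5 clusters, windows and peaks at each extreme. Printed examples, RefSeq promoters, tract lengths, width classes and mismatch counts were chosen after values were seen. The input sample was not used here.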

Additional observations from a re-analysis of the deposited data

How the results depend on the processing

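Of 65 alternatives to the 12 comparisons over peaks, 63 kept the direction and the side of 0.05. For the 4 of the 12 that concern the leading word, chosen on these peaks, this is no support. The share found in no other construct against CDX2-HA turned from a log2 odds ratio of -0.15 to 0.0356 (69.96% against 69.4%) when a peak within 500 bp counted as shared. Leaving out in turn each list of the 4 constructs with 2 lists gave -0.24 to -0.11 for CDX2-HA and 4.08 to 4.61 for DLX6-HA. The promoter share against CDX2-HA turned from 0.73 to -0.0138 among solo peaks, an alternative chosen after seeing the data, as were those with any of 4 words, unmasked or solo peaks only, and without DLX1-HA. The share of occurrences of the leading word at a peak, 9.18%, was 9.52% anywhere inside a peak, 60.5% in unmasked DNA and 10.5% on autosomes. Genes with a peak fell from 4586 to 938 at 1 kb in place of 10 kb. Over all 24 constructs none of the 9 measures ranked, which leave out the sequences chosen on these peaks, passed 0.05, and the difference in the share on chromosome X turned from 0.15 to -0.11 percentage points. No paired analysis was possible because DUXBL-HA has 1 list and replicate numbers in the labels do not link it to other constructs. With no read numbers, the depth limit of each list is unknown.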

Other observations

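Peaks outside the classes described above made up most of the list. After the 4-word set (5390 peaks), tandem words without it (1016) and AP-1 without either (2855), 15057 peaks (61.9%) held none of these sequences in the central 200 bp, and 49.7% of them held letters 1 off a word of the set. They were solo in 75.7% and at promoters in 4.66%, compared with 97.1% and 1.04% of the peaks with a word of the set. The AP-1 class was solo in 29.8% and overlapped a median of 3 other constructs.

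Peaks with a pair TAACNNAATCA, TAATNNAATCA or TGATNNAATCA were solo in 95.1% and soft-masked in 34.6%, and the 15191 without were solo in 64.3% and soft-masked in 11.7%. Among tandem units other than AATC, the unit ATCG had the next share near a midpoint, 2.48% of only 966 word positions, followed by ACTG with 1.23% of 24091. Commoner units were lower, with 0.0202% of 2024890 positions for AAAG and 0.0929% of 1448400 for AAAC.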
